A study of Mus musculus with 12 samples.

Results

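The collagen, laminin and integrin genes of mouse spermatogonia were followed in 12 RNA-seq libraries. Members were all rows of the expression table whose symbol names a collagen chain, a laminin chain or an integrin, which gave 86 genes of the 21859 in the table. They were 44 collagens and 11 laminins, together 55 matrix genes, and 31 integrin rows. Of the integrin rows, 26 encode receptor subunits and 5 only carry the name (*Itgb1bp1*, *Itgb1bp2*, *Itgb3bp*, *Itgbl1* and *Itgb2l*). The cells were GFRa1-EGFP-positive, KIT-negative spermatogonia, sorted from GFRa1-EGFP mice of 8 to 10 weeks, a gate that enriches the undifferentiated germ cells that include spermatogonial stem cells. The 5 control libraries (labelled WT) came from the untreated scrotal testis and the 7 cryptorchid libraries from the testis fixed surgically to the abdominal wall, where it is held at body temperature, 10 days after surgery. Both groups carry the same transgene, and no deletion distinguishes them. Which libraries came from the same mouse was not given. The cryptorchid testes were digested at 37°C and the control testes at 32°C, so condition and digestion temperature cannot be told apart.

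Spermatogonia lie on the basement membrane of the seminiferous tubule, a sheet built mainly of type IV collagen, laminins, nidogens and perlecan that Sertoli cells and peritubular myoid cells lay down together. Laminins are heterotrimers of an α, a β and a γ chain, and type IV collagen is a trimer drawn from 6 α chains (*Col4a1* to *Col4a6*). Integrins are heterodimers of an α and a β subunit that bind these proteins. The α6 and β1 subunits, which pair into a laminin receptor, are surface markers long used to enrich spermatogonial stem cells.

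Reads assigned to genes ranged from 4511730 to 24345368 in control and from 3306771 to 20027902 in cryptorchid libraries. Values are log2 RPM, that is, reads scaled to the same library total. Genes without reads carry a small value set by library depth, from -5.00 to -1.92 log2 RPM, and this value was lower in control (median -3.50) than in cryptorchid libraries (median -2.38). Replicates 1 to 3 of both groups formed a set apart from replicates 4 and above, with 74.5% to 94.0% of the implied total on genes against 94.8% to 99.9%, and differences are therefore also given within each set. The 15 markers of undifferentiated spermatogonia summed to 1233 to 1816 RPM in control and 1380 to 2140 RPM in cryptorchid libraries, and each had reads. None of the 15 was called, and 2 had unadjusted P below 0.05 (limma). The 6 markers of differentiating spermatogonia summed to 171 to 370 and 210 to 408 RPM. Of these, 1 (*Stra8*) was called higher, against 3.56% of all genes tested. Markers of haploid spermatids were present in both groups, and their means were lower in cryptorchid libraries. They summed to 492 to 2702 RPM in control and 13.5 to 1790 RPM in cryptorchid libraries, and these ranges overlapped. Of the 7 markers 3 were called lower, against 2.36% of all genes tested, and their lowest adjusted P was 0.13 (limma). The part of these other cells in the results below was not tested.

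Promoter sequence is shown for the β and α laminin chains with the most reads (*Lamb1*, *Lama5*), for the integrin subunit with the most reads (*Itgb1*), and for *Col6a3* and *Itgax*, low genes called higher in cryptorchid libraries. RefSeq windows (GRCm38.p6) were found for 62 of the 86 members. Each line below holds the stretch directly before the gene, 5′ to 3′ on the gene's strand, cut where an annotated exon begins. Capitals mark a GC box (GGGCGG on either strand), a CCAAT box (CCAAT on either strand) or a heat shock element (GAANNTTC).
Lamb1, chr12:31265043-31265233, plus strand: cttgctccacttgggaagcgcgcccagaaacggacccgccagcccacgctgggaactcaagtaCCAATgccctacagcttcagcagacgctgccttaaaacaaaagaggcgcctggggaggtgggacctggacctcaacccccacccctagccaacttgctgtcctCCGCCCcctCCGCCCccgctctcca
Lama5, chr2:180225860-180226109, minus strand: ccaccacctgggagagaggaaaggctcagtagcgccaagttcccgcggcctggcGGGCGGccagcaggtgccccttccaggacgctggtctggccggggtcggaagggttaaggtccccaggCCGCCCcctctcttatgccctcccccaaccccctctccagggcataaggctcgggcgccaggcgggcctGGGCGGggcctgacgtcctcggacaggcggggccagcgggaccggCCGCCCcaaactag
Itgb1, chr8:128685404-128685653, plus strand: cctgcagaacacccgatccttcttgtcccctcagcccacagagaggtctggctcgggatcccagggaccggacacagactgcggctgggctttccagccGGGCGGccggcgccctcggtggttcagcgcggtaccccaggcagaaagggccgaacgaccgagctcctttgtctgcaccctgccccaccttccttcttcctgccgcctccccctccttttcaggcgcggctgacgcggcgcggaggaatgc
Col6a3, chr1:90843972-90844221, minus strand: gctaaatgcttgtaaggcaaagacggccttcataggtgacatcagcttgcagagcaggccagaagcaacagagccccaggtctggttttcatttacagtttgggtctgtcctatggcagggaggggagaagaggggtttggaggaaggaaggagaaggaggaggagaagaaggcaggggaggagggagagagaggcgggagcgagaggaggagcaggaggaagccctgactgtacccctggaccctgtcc
Itgax, chr7:128129300-128129546, plus strand: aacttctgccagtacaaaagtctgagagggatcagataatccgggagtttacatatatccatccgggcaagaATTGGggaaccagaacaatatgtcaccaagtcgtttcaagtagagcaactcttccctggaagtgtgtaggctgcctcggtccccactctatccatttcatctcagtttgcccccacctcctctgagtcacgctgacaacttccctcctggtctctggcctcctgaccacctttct

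Counts were taken over the same 250 bases before each start, of which the lines above print 191 for *Lamb1* and 247 for *Itgax*. The abundant genes among the 5 shown held 14 (*Lamb1*), 19 (*Lama5*) and 21 (*Itgb1*) CpG dinucleotides, against 3 for *Col6a3* and 5 for *Itgax*. This order did not hold over all members. *Col8a2*, at -0.79 log2 RPM over all libraries, held 24 and *Lamb2*, at 4.38, held 3. The median was 10 over the 68 member windows and 6 over all 32851 windows. *Lamb1* held 2 GC boxes, *Lama5* 4 and *Itgb1* 1, while *Col6a3* and *Itgax* held none. A GC box stood in 24 of 44 collagen and laminin windows (54.5%) and 8 of 24 integrin windows (33.3%), against 32.7% of all windows. A heat shock element, the core of the site bound by heat shock factors, stood in 3 of 68 member windows (4.41%) against 6.69% of all windows, and a CCAAT box in 26.5% against 33.8%.

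Differences between groups are given as cryptorchid minus control on the log2 RPM scale, with the SE of limma's moderated test, over the 16932 genes whose log2 mean RPM was above -1. Of the 86 members, 85 were tested and *Col3a1*, a fibrillar collagen of stroma, was not, with at most 20 reads in any library. A call means at least a 2-fold difference with unadjusted P below 0.05. By this rule 2 of 54 matrix genes (*Col4a3* and *Col6a3*) and 1 of 31 integrin genes (*Itgax*) were called higher in cryptorchid spermatogonia, against 3.56% of all genes tested, and no member was called lower, against 2.36%. These shares of members were close to the background. In all, 5 members had unadjusted P below 0.05, against 9.48% of all genes, and none had an adjusted P below 0.05 (0.0118% of all genes), the lowest being 0.23 (limma, Benjamini-Hochberg over all genes). With voom on the recovered reads 7 of 85 members had unadjusted P below 0.05, against 11.6% of all genes, and none an adjusted P below 0.05.

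The groups did not overlap for 2 members. *Itga6* was higher in every cryptorchid library, where 0.555% of all genes behaved this way, and *Col22a1* was lower in every one, against 0.283%. The median difference was 0.22 over the matrix genes and 0.29 over the integrin genes, beside 0.10 over all genes tested. The medians differed with level. Among genes with log2 mean RPM above 2, the median was 0.05 for 32 matrix genes, -0.01 for 15 integrin genes and 0.07 for all such genes. At or below that level the medians were 0.86, 0.56 and 0.36, and there the values set by depth for genes without reads enter most. Across the 2 sets of libraries, 33 of 54 matrix genes and 16 of 31 integrin genes had a difference of the same sign in both, beside 10822 of 16932 genes.

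**Figure D1:**
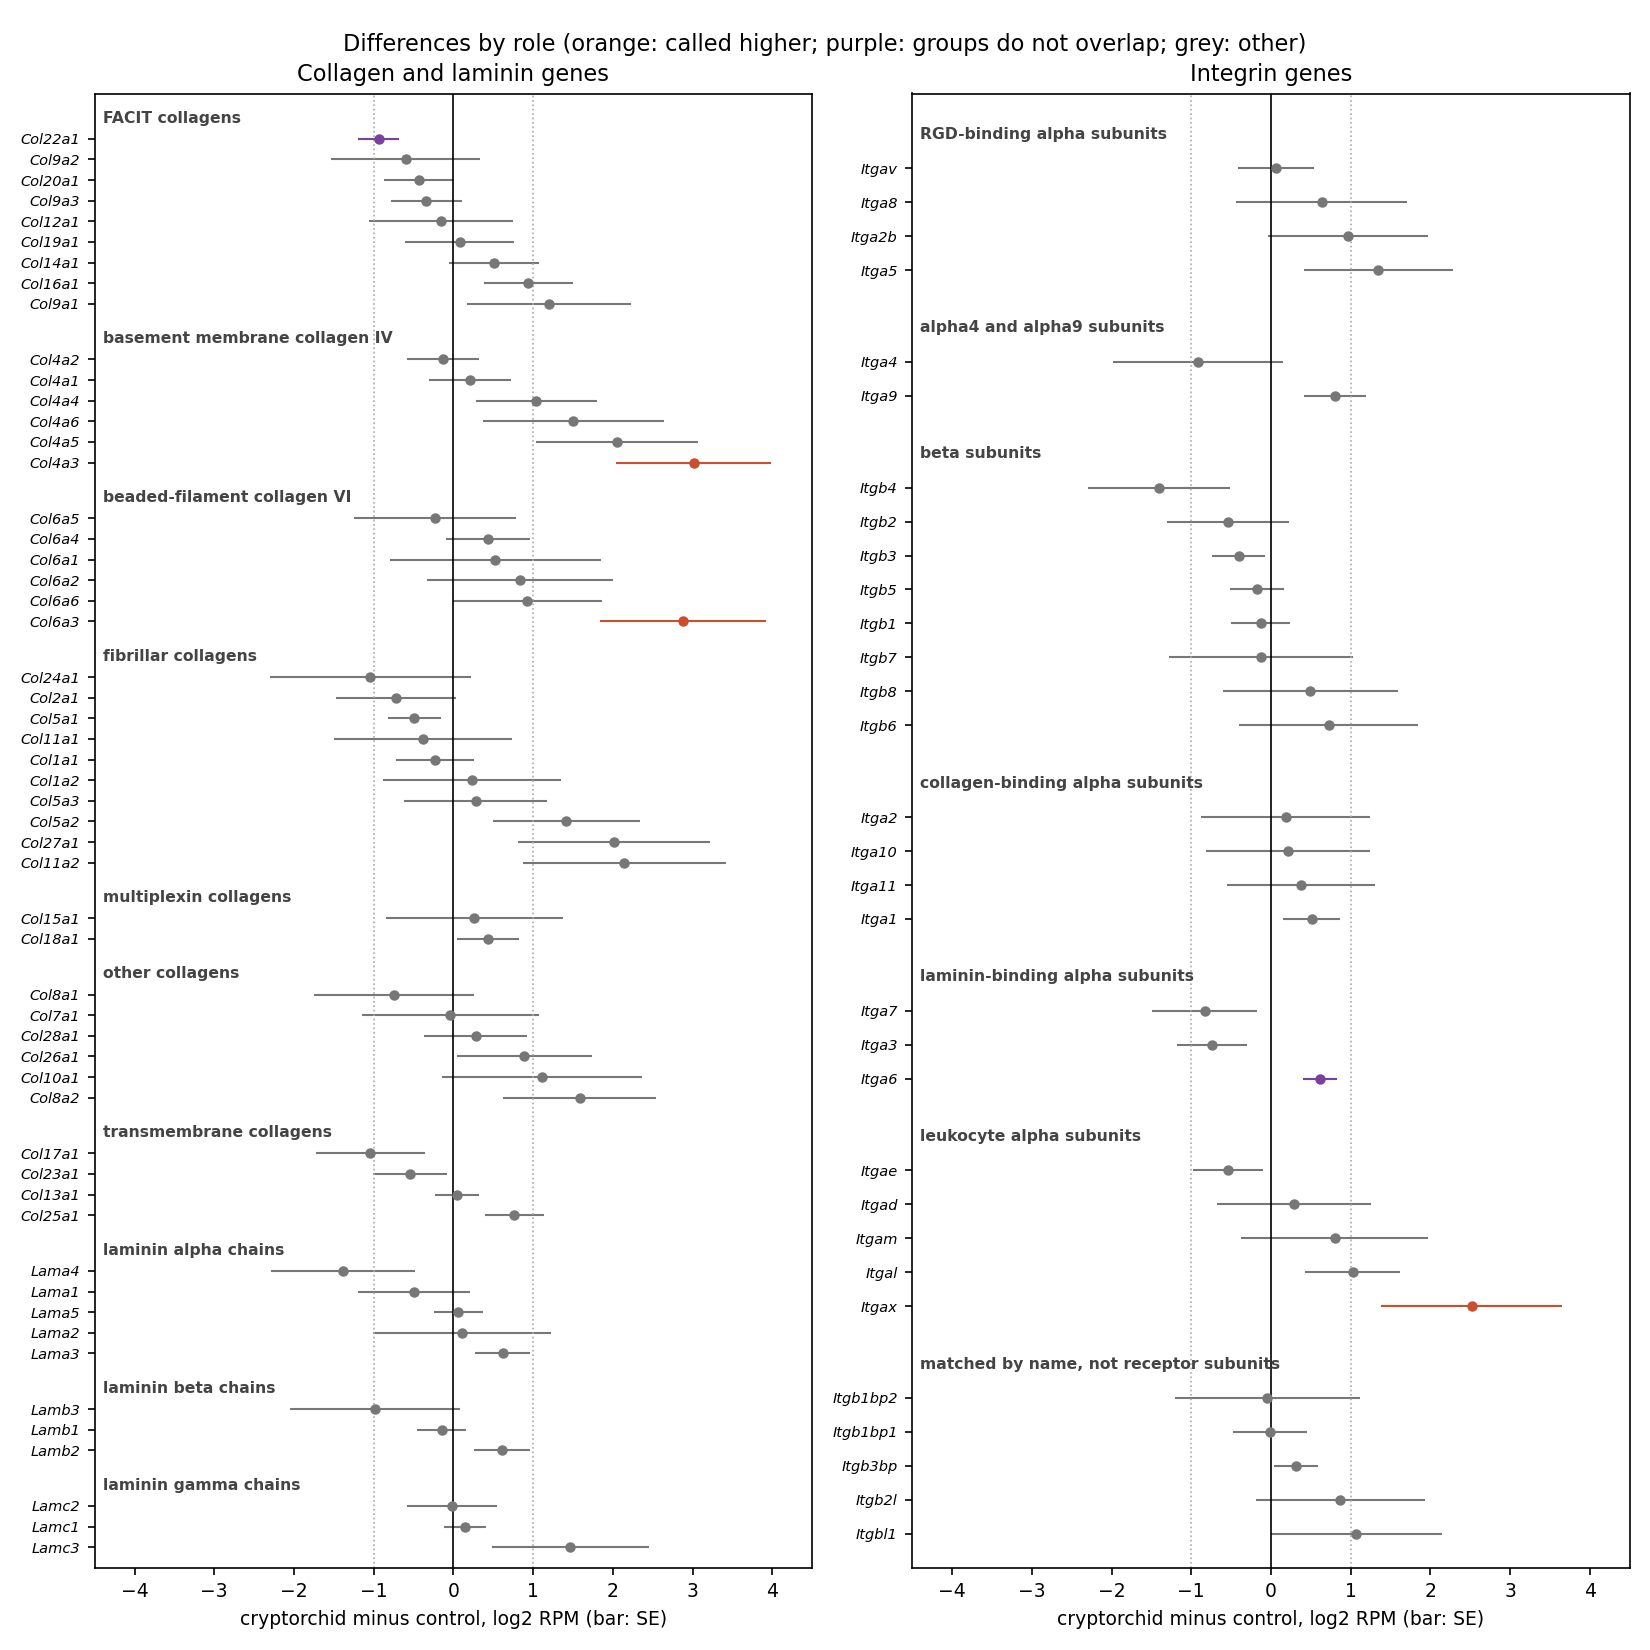
Difference between cryptorchid and control (x axis, log2 RPM, bars are SE) for the 54 matrix genes (left) and 31 integrin genes (right) tested, grouped by role. *Col4a3*, *Col6a3* and *Itgax* lie furthest to the right among called genes, and *Col22a1* and *Itga6*, whose groups did not overlap, have short bars.

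The strongest difference among basement membrane collagens lay in *Col4a3* (chr1:82586921-82722059, plus strand, GENCODE vM21 on GRCm38), a chain of the type IV collagen network best known from the kidney glomerulus. Control libraries had -0.36, -3.26, 0.56, 2.93 and -2.17 log2 RPM for replicates 1 to 5, which were 19, 3, 15, 42 and 1 reads. Cryptorchid libraries ranged from 0.81 to 3.98 with a median of 2.62, which were 6 to 152 reads. Control replicate 4 overlapped the cryptorchid range and the other 4 controls lay below it. The means were -0.46 ± 2.42 (SD, n=5) and 2.55 ± 1.30 (SD, n=7), a difference of 3.01 ± 0.97 (SE), or 8.08-fold (limma P=0.0062, adjusted P=0.34, exact permutation P=0.030). The exact values are from two-sided rank-sum tests, unadjusted, over 21 named members. The difference was 4.27 within replicates 1 to 3 and 1.65 within replicates 4 and above, where the call was lost. It shrank to 1.71 on a log2(RPM + 1) scale. A non-coding transcript (C430014B12Rik) overlaps 563 bp of *Col4a3* exons on the other strand, and the strand of counting was not given.

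The other type IV chains fell into 2 kinds by level. *Col4a1* and *Col4a2*, the chains of nearly all basement membranes, start head to head on chromosome 8 with 22 bp of shared exon, and were the 2 highest in RPM per kb of exon. *Col4a1* had 4.44, 4.21, 2.26, 3.18 and 3.44 log2 RPM in the controls and 2.81 to 5.34 (median 3.31) in cryptorchid libraries, and its groups overlapped widely. Its difference was 0.21 ± 0.51 (95% interval -0.87 to 1.29, adjusted P=0.92). *Col4a2* had 3.67, 3.17, 4.71, 4.11 and 3.35 in control and 2.58 to 4.72 (median 3.77) in cryptorchid libraries, with a difference of -0.13 ± 0.45 (95% interval -1.08 to 0.81, adjusted P=0.95).

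The low chains are given here although the naming rule did not select them, having been chosen after their values were seen. *Col4a4*, the neighbour of *Col4a3* on the other strand, had 1.19 ± 1.79 log2 RPM in the controls and 2.23 ± 0.82 in cryptorchid libraries, a difference of 1.04 ± 0.76 (adjusted P=0.70). *Col4a5*, on chromosome X, had -1.63 ± 1.86 and 0.42 ± 1.63, a difference of 2.06 ± 1.01 (adjusted P=0.54). *Col4a6*, its neighbour, had -2.02 ± 1.61 and -0.51 ± 2.24, a difference of 1.5 ± 1.13 (adjusted P=0.71). Each of these 3 chains and *Col4a3* had a higher cryptorchid mean in both sets of libraries. With all libraries *Col4a3* was called and the other 3 were not, while within replicates 4 and above *Col4a5* was called (2.59) and *Col4a3* was not. *Col4a5* was called in 6 of the 24 alternative settings that tested it, among them those without control replicate 1 or 3 or cryptorchid replicate 7, and *Col4a3* in 24 of 25. Control replicate 2 had at most 10 reads of any of them, and the SD of these chains was 1.61 log2 RPM or more in control.

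**Figure D2:**
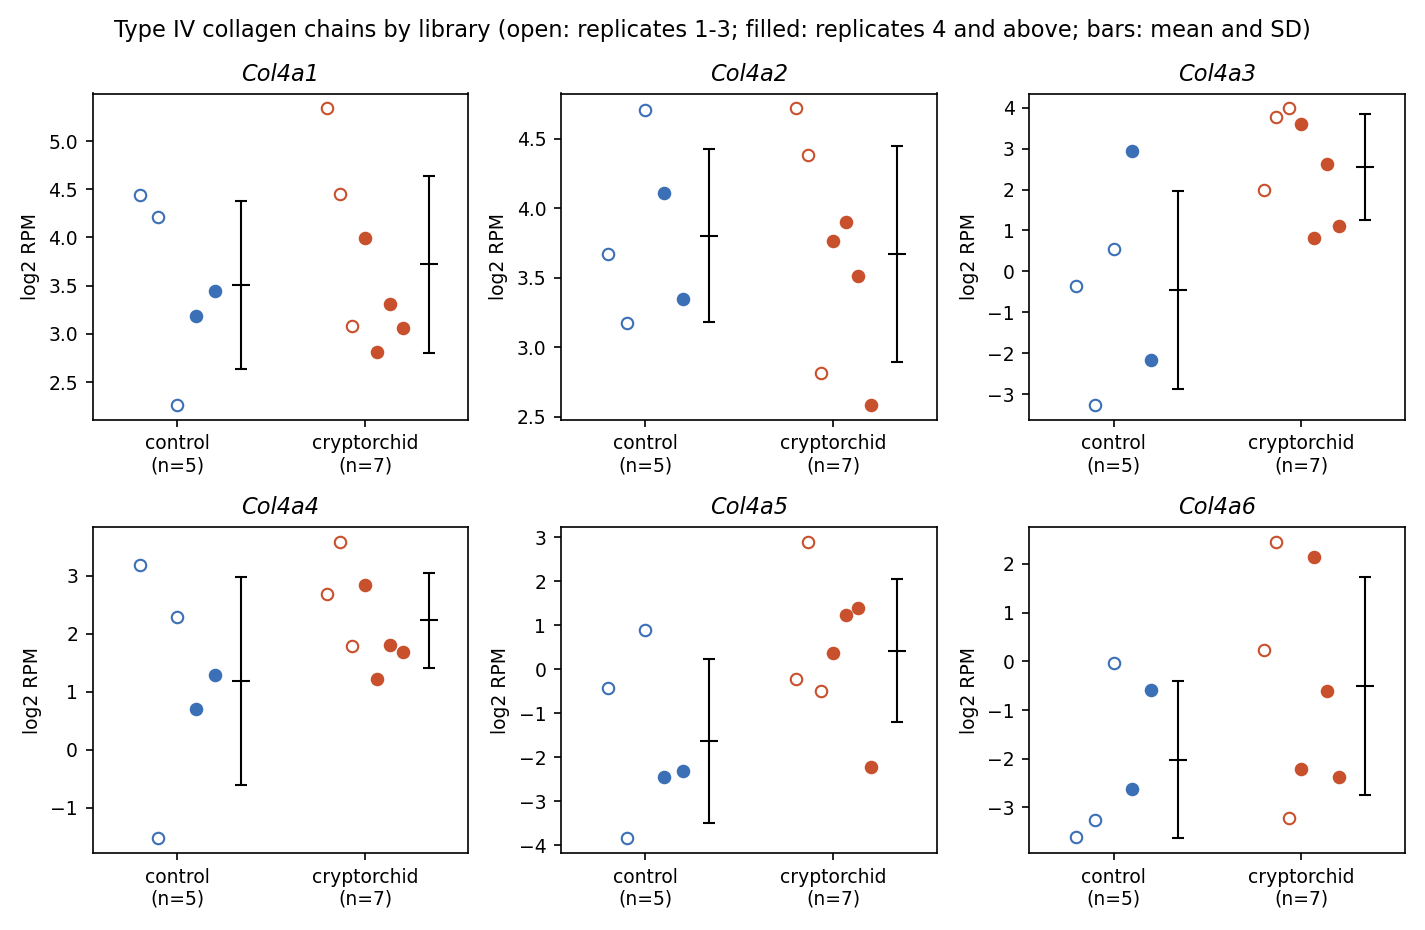
Log2 RPM (y axis) of the 6 type IV collagen chains in each of the 5 control and 7 cryptorchid libraries, with the mean and SD beside the points. *Col4a1* and *Col4a2* lie between 2.26 and 5.34 in both groups with full overlap, and for *Col4a3* all cryptorchid libraries lie at or above 0.81 while 4 of 5 controls lie below that value.

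Type VI collagen forms beaded filaments around the basement membrane, and *Col6a3* (chr1:90765923-90843971, minus strand) encodes its long α3 chain. Control libraries had 0, 17, 1, 2 and 2 reads, or -4.76, -0.76, -3.35, -1.46 and -1.17 log2 RPM. Cryptorchid libraries had 0 to 127 reads, or -1.92 to 2.51 log2 RPM with a median of 0.78. The groups overlapped, with cryptorchid replicates 3, 4 and 5 at 3, 4 and 0 reads. The means were -2.30 ± 1.70 and 0.58 ± 1.83, a difference of 2.88 ± 1.04 (limma P=0.013, adjusted P=0.39, exact permutation P=0.073). Within replicates 1 to 3 the difference was 4.07 and within replicates 4 and above 1.49, where the call was lost. It was also lost on a log2(RPM + 0.1) scale, at 2.11. At this depth the control level stands on few reads. Its partners *Col6a1* and *Col6a2*, which assemble with it in 1 protein, differed by 0.52 ± 1.33 and 0.84 ± 1.16 and were not called. Over the 6 type VI genes 5 had the higher mean in cryptorchid libraries and 1 was called.

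Among the fibril-associated (FACIT) collagens, *Col22a1* (chr15:71795795-72034227, minus strand), known from tissue junctions such as that between muscle and tendon, was the collagen with the most reads and was lower in cryptorchid spermatogonia. Control libraries had 7.29, 6.47, 6.48, 6.29 and 6.83 log2 RPM, and cryptorchid libraries had 5.0 to 6.15 with a median of 5.77. Every cryptorchid library lay below the lowest control, on 109 to 1580 reads against 429 to 3806. The difference was -0.94 ± 0.26, a 1.92-fold lower level that misses the 2-fold rule (limma P=0.0021, adjusted P=0.23, exact permutation P=0.0025). That exact P is the smallest that 5 against 7 libraries allow. The difference was -0.75 within replicates 1 to 3 and -1.03 within replicates 4 and above. Over the 25 alternative settings it ranged from -1.04 to -0.75, and it was called lower in 4 of them (within replicates 4 and above, with median centring, and without control replicate 4 or cryptorchid replicate 1). In bulk libraries such as these, fewer cells carrying a transcript and less transcript per cell cannot be told apart. The other 8 FACIT genes were not called, with differences of -0.60 to 1.20.

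The transmembrane collagens were among the most abundant collagens. *Col13a1*, found at neuromuscular junctions and cell adhesion sites, had 6.39, 5.59, 6.65, 5.84 and 6.27 log2 RPM in the controls and 5.67 to 6.75 (median 6.14) in cryptorchid libraries. Its groups covered the same range, with a difference of 0.04 ± 0.27 (95% interval -0.53 to 0.62). *Col25a1*, a neuronal collagen that also binds amyloid, had 4.41, 5.15, 6.35, 5.39 and 6.57 in control and 5.66 to 7.28 (median 6.47) in cryptorchid libraries, a difference of 0.76 ± 0.37 (limma P=0.054, exact permutation P=0.20). Control replicates 3 and 5 reached the cryptorchid range. *Col17a1* and *Col23a1* had lower cryptorchid means, by 1.04 and 0.54, and neither was called.

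The 11 fibrillar collagens, which form the fibres of connective tissue, had no call, with 5 higher and 5 lower means among the 10 tested and a median of 0.00. *Col5a1* was the most abundant at 6.16 ± 0.45 and 5.67 ± 0.69 log2 RPM. The chains of type I collagen are given as a pair chosen after their values were seen. *Col1a1* stood at 4.86 ± 1.12 log2 RPM in the controls and 4.63 ± 0.85 in cryptorchid libraries, on 60 to 1287 reads, and did not differ beyond this spread (-0.23 ± 0.49, adjusted P=0.91). *Col1a2*, whose product joins that of *Col1a1* in type I collagen, had no reads in 8 of 12 libraries and reached 125 reads only in control replicate 1. Stromal collagens *Col1a2* and *Col3a1* were at or near 0 reads in most libraries, while *Col1a1* and *Col5a1* had reads in all 12. The multiplexins, collagens of basement membranes, differed by 0.26 ± 1.11 (*Col15a1*) and 0.44 ± 0.39 (*Col18a1*), and the 6 remaining collagens had 4 higher and 2 lower means and no call.

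Laminin transcripts were dominated by 3 chains, *Lamb1*, *Lama5* and *Lamc1*, which together gave 85.9% of laminin RPM and none of which was called. These are the chains of the laminin trimer of α5, β1 and γ1. *Lamb1* had 8.39, 7.71, 8.82, 8.0 and 7.89 log2 RPM in the controls and 7.26 to 9.05 (median 7.98) in cryptorchid libraries. *Lama5* had 6.44, 6.82, 8.01, 7.32 and 7.04 in control and 6.69 to 8.22 (median 7.08) in cryptorchid libraries. *Lamc1*, the γ chain of most laminins, had 6.21, 5.98, 6.13, 5.75 and 5.71 in control and 5.27 to 6.54 (median 6.39) in cryptorchid libraries. All 3 chains overlapped between groups. The differences were -0.15 ± 0.31 (95% interval -0.79 to 0.50) for *Lamb1*, 0.06 ± 0.31 (-0.59 to 0.71) for *Lama5* and 0.15 ± 0.27 (-0.41 to 0.71) for *Lamc1*, so a 2-fold change of each lies outside its interval. For *Lamc1* the sign differed between the sets of libraries, at -0.24 and 0.55.

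Per kb of exon the chains ranked *Lamb1* (4.77 log2 RPM per kb over all libraries), *Lama5* (3.65), *Lamc1* (3.0), *Lamb2* (1.77) and *Lama3* (1.45). *Lama3*, the α chain of epithelial laminins, had 4.51 ± 0.61 and 5.13 ± 0.55 log2 RPM, a difference of 0.62 ± 0.35 (limma P=0.094, adjusted P=0.60, exact permutation P=0.11). *Lamb2*, the β chain of vascular, kidney and synaptic laminins, had 4.02 ± 0.69 and 4.63 ± 0.32, a difference of 0.61 ± 0.35 (exact permutation P=0.15). For both the mean was higher in each set of libraries and the groups overlapped. *Lama1*, an α chain of embryonic and testicular basement membranes, had 4.02, 0.96, 1.78, 3.98 and 4.47 log2 RPM in the controls and 0.93 to 3.88 (median 2.67) in cryptorchid libraries, a difference of -0.49 ± 0.70 (exact permutation P=0.34). Its controls spread more widely than its cryptorchid libraries. *Lama4*, an α chain of blood vessels, differed by -1.38 ± 0.90 and *Lamc3*, at 0 to 17 reads, by 1.47 ± 0.98 (exact permutation P=0.15 for each). Over the 11 laminins 6 means were higher, 5 lower, no gene was called, and the median difference was 0.06.

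**Figure D3:**
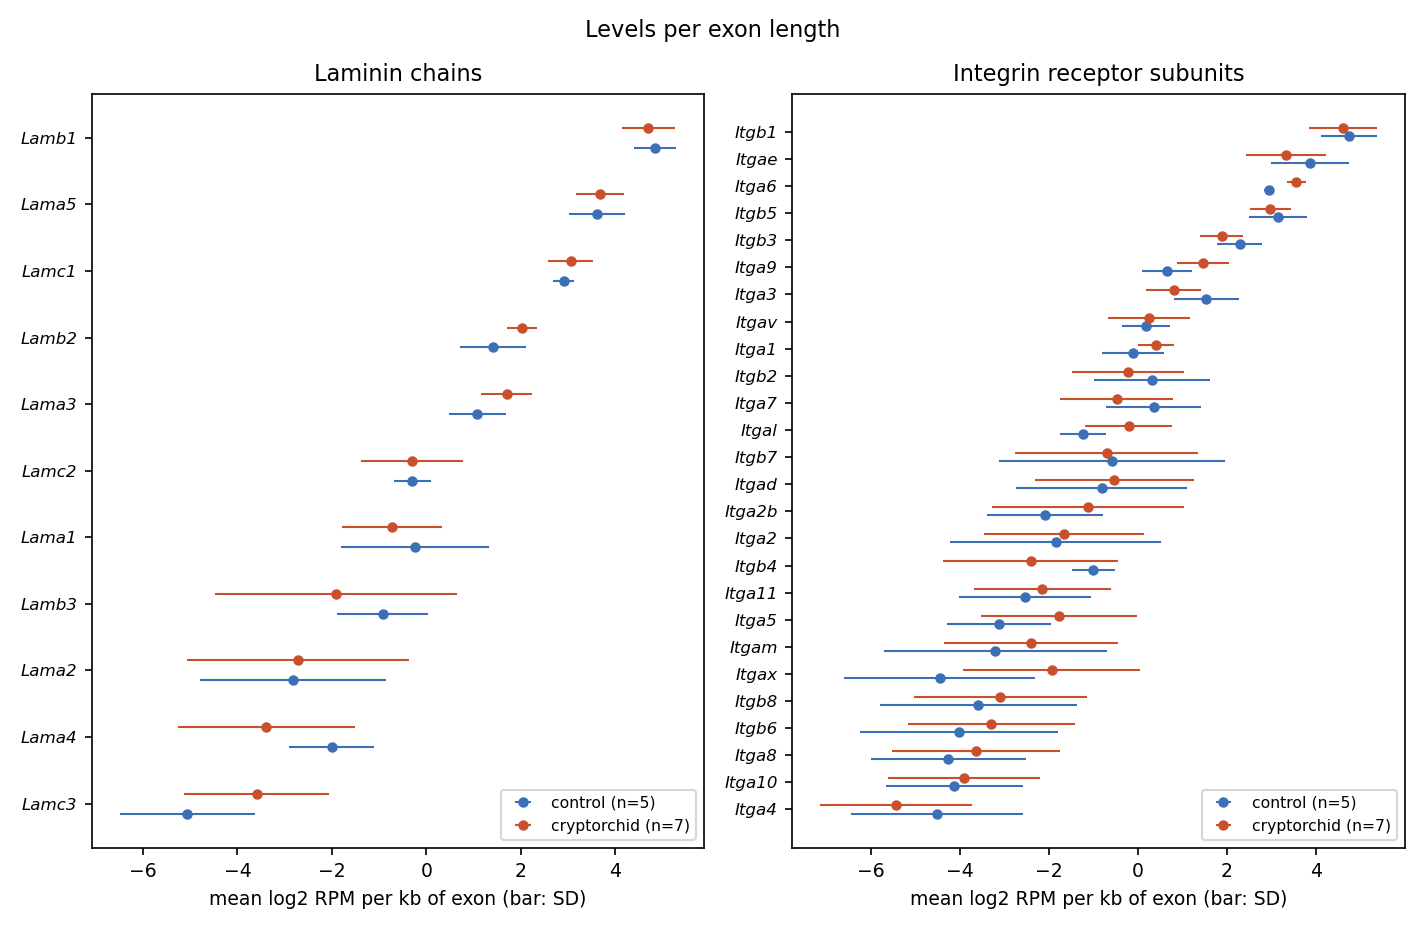
Mean log2 RPM per kb of exon (x axis, bars are SD) of the 11 laminin chains (left) and 26 integrin subunits (right) in control (n=5) and cryptorchid (n=7) libraries, ordered by the mean over all libraries. *Lamb1*, *Lama5* and *Lamc1* lead the laminins and *Itgb1*, *Itgae* and *Itga6* the integrins, and of these 6 only *Itga6* has groups that do not overlap.

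*Itga6* (chr2:71745616-71858416, plus strand), the α6 subunit of laminin receptors, was higher in all cryptorchid libraries. Control libraries had 6.02, 6.0, 6.1, 6.27 and 6.2 log2 RPM, and cryptorchid libraries had 6.49 to 7.15 with a median of 6.73. The highest control lay below the lowest cryptorchid library, on 333 to 1844 and 486 to 2008 reads. The means were 6.12 ± 0.12 and 6.74 ± 0.22, a difference of 0.62 ± 0.21 or 1.54-fold (95% interval 0.17 to 1.07 on the log2 scale). The limma P was 0.0096 and the adjusted P 0.37, and the exact permutation P was 0.0025, the smallest possible here. The difference was 0.51 within replicates 1 to 3 and 0.64 within replicates 4 and above, and lay between 0.51 and 0.66 over the 25 alternatives. No annotated gene shares exons with it.

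The other laminin-binding α subunits had lower cryptorchid means. *Itga3* differed by -0.74 ± 0.44 (adjusted P=0.62) and *Itga7* by -0.83 ± 0.66 (adjusted P=0.72), with the same sign in both sets of libraries. Their levels overlapped between groups, and neither was called.

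*Itgb1* (chr8:128685654-128733200, plus strand), the β1 subunit that pairs with α6 and most other matrix-binding α subunits, was the integrin gene with the most reads. Control libraries had 7.68, 6.63, 6.01, 6.49 and 7.03 log2 RPM, and cryptorchid libraries had 5.28 to 7.47 with a median of 6.89. The groups overlapped over nearly the whole range. The difference was -0.13 ± 0.37 (95% interval -0.90 to 0.65, adjusted P=0.93), and its sign differed between the sets at -0.54 and 0.18. Of the 8 β subunits 2 had higher and 6 lower means and none was called, among them *Itgb4*, the partner of α6 in hemidesmosomes, at -1.41 ± 0.89 (adjusted P=0.65).

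**Figure D4:**
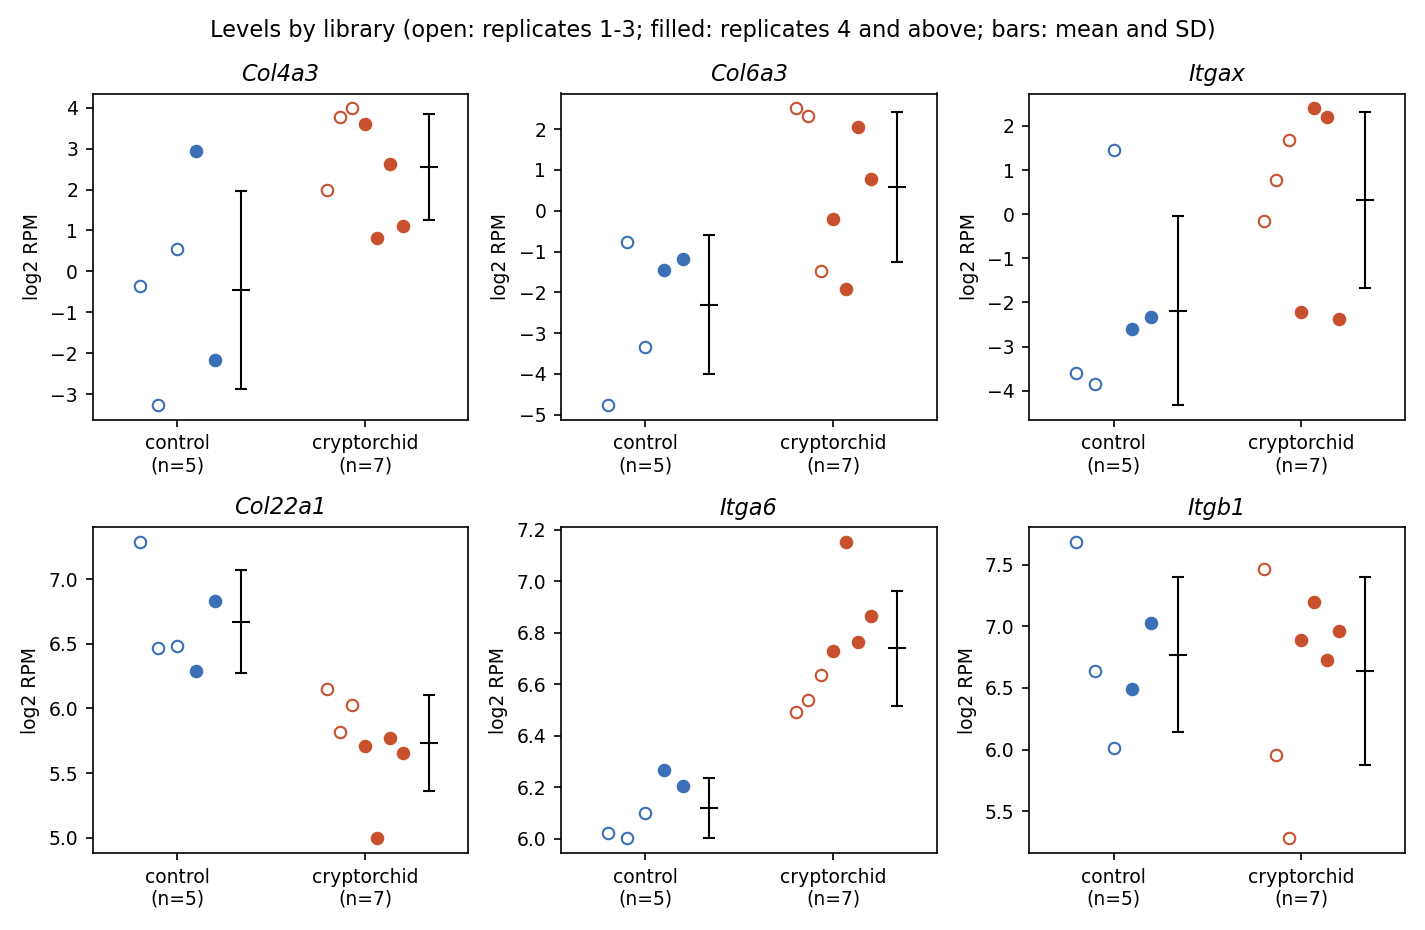
Log2 RPM (y axis, its range set for each gene) in each of the 5 control and 7 cryptorchid libraries for the 3 called members (top), for *Col22a1* and *Itga6*, and for *Itgb1*. *Itga6* runs from 6.0 to 6.27 in control and from 6.49 to 7.15 in cryptorchid libraries, and *Itgb1* overlaps.

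The collagen-binding α subunits (*Itga1*, *Itga2*, *Itga10*, *Itga11*) had small positive differences, 0.18 to 0.51, and no call. The RGD-binding α subunits, which recognise fibronectin and vitronectin, had differences of 0.07 (*Itgav*) to 1.35 (*Itga5*) and no call, and for 1 of 4 was the mean higher in both sets. *Itga9*, a receptor subunit for tenascin and other ligands, had 3.47, 3.37, 4.37, 2.90 and 3.91 log2 RPM in the controls and 3.40 to 5.12 (median 4.45) in cryptorchid libraries. Of the cryptorchid libraries only replicates 2, 4 and 6 were at or below the highest control. Its difference was 0.80 ± 0.39 (limma P=0.053, exact permutation P=0.048), and it was 0.79 and 0.91 within the sets.

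Of the leukocyte α subunits, *Itgax* (CD11c, chr7:128129547-128150657, plus strand), a marker of dendritic cells and some macrophages, was called higher. Control libraries had 2, 2, 28, 0 and 0 reads, or -3.61, -3.85, 1.46, -2.61 and -2.33 log2 RPM. Cryptorchid libraries had 0 to 27 reads, or -2.38 to 2.40 log2 RPM with a median of 0.77. Control replicate 3 lay among the high cryptorchid libraries, and cryptorchid replicates 4 and 7 had 1 and 0 reads. The difference was 2.52 ± 1.13 (limma P=0.040, adjusted P=0.50, exact permutation P=0.048). The call was lost in 14 of 24 alternative settings, 8 of them the omission of a single library, and the range with 1 library left out was 2.1 to 3.43.

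*Itgae* (CD103) had 6.41, 5.88, 4.63, 6.55 and 6.85 log2 RPM in the controls and 4.38 to 6.52 (median 5.30) in cryptorchid libraries, a difference of -0.54 ± 0.44 (exact permutation P=0.34). The difference was -0.85 within replicates 1 to 3 and -0.63 within replicates 4 and above. Its limma P was below 0.05 in 3 of 25 alternative settings. It was the second integrin gene per kb of exon at 3.55 log2 RPM per kb, while *Itgb7*, the only known β partner of αE, was at -0.64. *Haspin*, a kinase gene expressed in male germ cells, lies within *Itgae* on the other strand (chr11:73135485-73138294), and the strand of counting was not given. *Itgal* (CD11a) differed by 1.02 ± 0.60 (exact permutation P=0.11), and *Itgam* and *Itgad* by 0.80 and 0.29. *Itgb2*, the β partner of these leukocyte subunits other than αE, differed by -0.54 ± 0.77. The 5 genes that carry an integrin name without being subunits had no call.

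Other genes of the pathway were counted from 5 lists. The calls in each stand beside 3.56% called higher and 2.36% called lower over all genes tested. Of 21 basement membrane partners tested, 2 were called higher and none lower. *Frem2*, a large protein that links epithelium to the basement membrane, had 1.83 to 4.92 log2 RPM in the controls and 4.01 to 5.14 in cryptorchid libraries (1.49 ± 0.44, adjusted P=0.25). *Ntn4*, a laminin-related netrin, differed by 1.90 ± 0.75 (adjusted P=0.43), and its call was lost without control replicate 3 (1.68) or 5 (1.58). Of 26 collagen-modifying enzymes and chaperones, 1 was called higher and 2 lower. *Adamts3*, a procollagen N-propeptidase, differed by 1.21 ± 0.47 (adjusted P=0.43; call lost without control replicate 4, at 1.06) and *Adamts14*, a protease of the same kind, by -2.83 ± 0.87 (adjusted P=0.30).

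Of 22 genes of the integrin adhesion machinery, 1 was called higher and 2 lower. *Actn1*, which ties adhesions to actin, differed by 1.03 ± 0.41 (adjusted P=0.44), and its call was lost without control replicate 3, 4 or 5 or cryptorchid replicate 4 (0.86 to 0.93). *Tns1*, a tensin of mature adhesions, had 3.04 to 5.74 log2 RPM in the controls and -0.77 to 4.51 in cryptorchid libraries (-2.48 ± 0.85, adjusted P=0.37). Of 15 matrix receptors that are not integrins, 2 were called higher. *Ddr1*, a receptor tyrosine kinase for collagen, had 5.32, 3.92, 3.82, 3.47 and 3.18 log2 RPM in the controls and 4.74 to 5.83 (median 5.43) in cryptorchid libraries (1.47 ± 0.36, adjusted P=0.20). Only control replicate 1 reached the cryptorchid range. *Bcam*, a receptor for laminin α5, differed by 2.64 ± 1.06 (adjusted P=0.44). It had no reads in any control and 0 to 65 in cryptorchid libraries, with 4 of the 7 also at 0. Its control values (-5.00 to -2.33 log2 RPM) were thus all set by depth, so the size of its difference depends on them. Its call was lost without control replicate 1 (2.36) or 2 (2.3). Of 20 matrix proteases and inhibitors only *Timp3*, a matrix-bound inhibitor, was called, at 1.18 ± 0.51 (adjusted P=0.48). Control replicate 1 was at 0.95 log2 RPM and the other controls at 3.78 to 4.51, and without it the difference was 0.52 and not called, as it was not without cryptorchid replicate 3 (1.13) or 5 (1.15). No gene of these lists had an adjusted P below 0.05, and with voom 2 to 3 of the 15 to 26 genes of each list had unadjusted P below 0.05, against 11.6% of all genes.

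Some markers of cells outside the germ line were also called, beside shares of 3.56% higher and 2.36% lower over all genes tested. Of 8 endothelial markers tested 3 were called higher (*Tie1*, *Cdh5* and *Vwf*), of 6 stromal markers 2 (*Pdgfra* and *Mfap5*), of 8 macrophage markers 1 (*Mrc1*) and of 7 peritubular myoid markers 1 higher and 1 lower (*Des* and *Actg2*). The call of *Vwf* was lost without control replicate 2, 3 or 4 or cryptorchid replicate 1 (1.25 to 1.67). *Mrc1*, a macrophage receptor, had 0.46 to 2.35 log2 RPM in the controls and 1.84 to 3.77 in cryptorchid libraries. The summed levels overlapped, at 25.7 to 49.2 RPM in control and 36.9 to 74.1 RPM in cryptorchid for the 9 endothelial markers, 8.66 to 45.6 and 23.8 to 67.6 RPM for the 8 stromal markers, and 89.9 to 135 and 75.0 to 120 RPM for the 8 myoid markers. The 10 macrophage markers summed to 238 to 428 and 192 to 439 RPM, most of it from *Cx3cr1*. *Csf1r*, *Cd68*, *Mrc1* and *Cx3cr1* had reads in all 12 libraries, while *C1qc* and *C1qa* had none in 10 and 9. Of the Sertoli markers none of 10 tested was called (46.3 to 254 and 43.6 to 265 RPM), and of the Leydig markers none of 3. Of the stromal list *Pdgfra*, *Pdgfrb* and *Thy1* had reads in all 12 libraries and *Lum* and *Tcf21* had none in 10. Of the endothelial list *Pecam1*, *Cdh5*, *Tek*, *Vwf* and *Egfl7* had reads in all 12 and *Esam* had none in 10. In the myoid list *Mylk*, *Actg2* and *Myl9* had reads in all 12, while *Acta2*, *Cnn1* and *Des* had none in 6, 5 and 4. *Mylk* was the highest myoid marker, at means of 5.83 log2 RPM in control and 5.98 in cryptorchid libraries. The part of these cells in the values of *Itgax*, *Col6a3* and the low type IV chains was not tested.

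**Figure D5:**
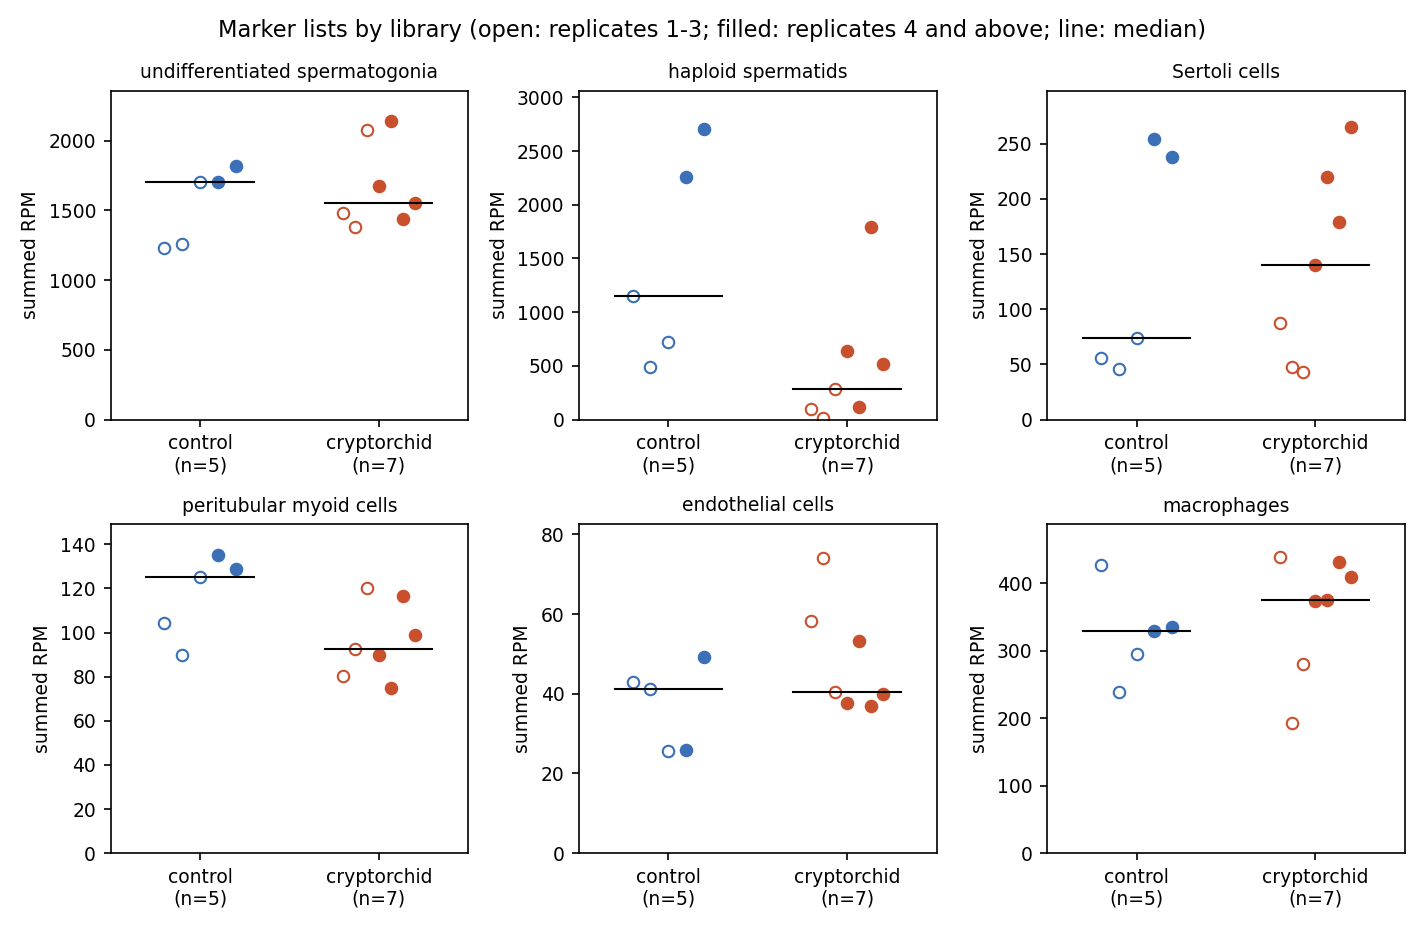
Summed RPM (y axis, from 0) of 6 marker lists in each of the 5 control and 7 cryptorchid libraries, with the median as a line. Haploid spermatid markers reach 2702 RPM in control and 1790 RPM in cryptorchid libraries, and the endothelial and macrophage sums overlap between groups.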

How the data were processed

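RNA was isolated from about 1000 sorted GFRa1-EGFP-positive, KIT-negative spermatogonia. The part of it equal to about 200 cells a library was amplified by Smart-seq2, without molecular identifiers. Per the paper's methods and the submitters' processing notes, the authors trimmed reads (Trim Galore 0.6.6), aligned them to mm10 (HISAT2 2.1.0) and counted them in SeqMonk against a UCSC annotation of coding genes. The deposited values are log2 RPM of 12 libraries. Strand and exon settings of the counting were not given in the sources used here. Reads were recovered from the values: with 0.9 reads for a gene without reads, 100% of values under 1000 reads came out whole (tolerance 0.05). Reads per library are 1 limit on the precision of low genes, where counting error alone is large. Libraries of a group also differed by more than sampling noise, as given below.

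Because the values are on a log2 scale, limma 3.58.1 with a trend (R 4.3.3) was fitted to cryptorchid against control over 16932 genes with log2 mean RPM above -1, and P-values were adjusted by Benjamini-Hochberg. The named-gene rule took members called, members whose groups did not overlap, for each family the 4 smallest P and the 3 highest means, and *Itga6*, *Itgb1*, *Col4a1*, *Col4a2*, *Lama1*, *Lamb1* and *Lamc1*. Pathway genes were named where called or of smallest P, at most 2 a list. Exact tests enumerated the 792 assignments of libraries (scipy 1.17.1), unadjusted. Exon lengths and positions came from GENCODE vM21 (86 of 86 members matched). The fit was tested on simulated data. Alternatives were other scalings, filters, weights, voom on recovered reads, a replicate block, each set of libraries, each library left out, and a common floor chosen after seeing the data. The members and lists were chosen with earlier results of these data known. Libraries of a group differed by 12.8 to 252.6 times sampling noise, so each counted as 1 sample, and P-values measure the spread between libraries, since separate mice were not stated.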

Additional observations from a re-analysis of the deposited data

Results flagged for a closer look

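Among the named members, 2 of 42 groups held a single library far from the rest by Dixon's criterion, where chance marks about 1 in 20. *Col22a1* in cryptorchid replicate 5 was at 5.0 log2 RPM (109 reads), below the other cryptorchid libraries at 5.65 to 6.15. *Itgax* in control replicate 3 was at 1.46 log2 RPM (28 reads), above the other controls at -3.85 to -2.33.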

How the results depend on the processing

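The settings differed mainly in counts of called genes. Matrix genes called higher numbered 2. They numbered 3 with the replicate block, with a term for the sets, within replicates 1 to 3 and with voom, 4 with array weights, and 1 with log2(RPM + 0.1), with the filter at 2 (*Col4a3* in both) and within replicates 4 and above (*Col4a5*). Matrix genes called lower numbered 0, and 1 within replicates 4 and above, with median centring, with array weights and with the replicate block. Integrin genes called higher numbered 1, 2 with array weights, and 0 within either set of libraries, with quantile normalization, log2(RPM + 1), log2(RPM + 0.1), the filter at 2 and the common floor. With 1 library left out these counts ranged from 2 to 4, 0 to 1 and 0 to 1, and integrin genes called lower from 0 to 1. The 4 matrix calls came without control replicate 3, cryptorchid replicate 3 or cryptorchid replicate 7. The cause was not tested. The medians of both classes moved by less than the spread between libraries.

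Small differences changed sign. *Col4a2* was at 0.11 with the replicate block, 0.12 within replicates 1 to 3, 0.13 with voom and -0.31 to 0.093 with 1 library left out. *Col4a1* was at -0.018 within replicates 4 and above and -0.0998 to 0.45 with 1 left out. *Itgb1* was at 0.18 within replicates 4 and above, 0.047 with array weights and -0.32 to 0.0989 with 1 left out. *Lama5* was at -0.053 within replicates 4 and above, -0.0060 with median centring and -0.11 to 0.28 with 1 left out. *Col13a1* was at -0.022 with median centring, -0.0017 with quantile normalization and -0.094 to 0.17 with 1 left out. *Lamc1* was at -0.24 within replicates 1 to 3, and *Lamb1* ranged from -0.32 to 0.016 with 1 left out.

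Surgery was on 1 testis of a mouse, but no source ties a replicate number to a mouse, so the numbers were not taken as pairs. Deviations of same-numbered libraries correlated at 0.35, 0.36, 0.41, 0.25 and 0.05. Control replicates 1 to 4 correlated best with their own number, a hint from the data and not the design, and replicate 5 with cryptorchid replicate 7 (0.27). With the number as a block, members called went from 3 to 5 and *Col22a1*, *Col25a1*, *Col4a3* and *Itga6* had adjusted P below 0.05 (limma), as did 949 genes in all. With array weights *Col22a1* had an adjusted P of 0.027. In the other 23 settings no member had one below 0.05. Depth limits members under about 3 reads, which are at -3.26 to -0.19 log2 RPM.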
